A study of Mus musculus with 16 samples.

Results

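The genes described here are the collagens, defined as every gene on the array whose symbol consists of Col, a number, the letter a and a number. The rule found 44 genes among 22911 with a symbol, and they carried 67 probes. Where a gene had several probes, the one with the highest mean over all 16 arrays stood for it.

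Collagens are the main structural proteins of the extracellular matrix, and each molecule is a helix wound from 3 chains, which may come from 1 gene or from several. Fibrillar collagens (types I, II, III, V, XI, XXIV and XXVII) pack into the cables that give a tissue its tensile strength. Type IV collagen forms the sheet-like network of basement membranes, which surround every adipocyte and every capillary, and type VI forms beaded filaments between that sheet and the fibrils. Other types decorate fibrils, anchor epithelia or span the cell membrane. In adipose tissue collagens are made by fibroblast-like progenitors, mural and endothelial cells and also by adipocytes, and an excess of types I, III and VI is what is known as adipose tissue fibrosis.

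Labelled RNA of brown adipose tissue (BAT) and gonadal white adipose tissue (gWAT) was hybridized to 1-colour Agilent arrays, 4 arrays for each tissue and genotype. Adipo-Pgam1 KO mice carried Pgam1 flox/flox alleles and Adipoq-Cre, whose promoter is active in adipocytes. Cells in which it is not active keep the gene for this glycolytic enzyme. For gWAT the paper proposes that a fibroblast cluster rich in adipocyte markers, read as preadipocytes, lost Pgam1 as well. Littermate controls (WT) carried the same floxed alleles without Cre. All mice were C57BL/6NCrSlc males on normal chow at 23℃, aged 16 weeks except for replicate 4 of both KO groups, aged 14 weeks. The labels do not say whether the BAT and the gWAT array of 1 number came from 1 mouse. A level below is the log2 of the processed signal over the 75th percentile of its array. A probe counts as detected on an array if its spots were well above background, and probes with different sequences differ in brightness, so levels are compared between groups for 1 gene and never between genes.

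The targeted gene fell in BAT, where Pgam1 read 7.94, 7.93, 8.07 and 7.82 in WT and 6.20, 6.13, 6.03 and 6.43 in KO (log2 change -1.74 ± 0.11 SE, limma adjusted p = 1.1e-05). In gWAT it went against the label, with 5.07, 5.15, 5.67 and 5.56 in WT and 6.50, 6.42, 6.38 and 5.95 in KO (0.95 ± 0.19, adjusted p = 0.014). This call was lost with slide or with replicate number as a fixed block. The paper reports the opposite for gWAT, with less Pgam1 by PCR and Western blot and lower enzyme activity. Every gWAT direction below is therefore that of the arrays labelled KO. Ucp1, the uncoupling protein of brown adipocytes, was at least 20756-fold higher in BAT than in gWAT of WT mice. Arrays BAT-WT 1 to 3 lay on 1 slide, BAT-WT-4, all BAT-KO and gWAT-WT 1 to 3 on another, and gWAT-WT-4 with all gWAT-KO on the last. Before scaling, the 75th percentile was 401 to 451 on the BAT-WT arrays and 650 to 916 on the BAT-KO arrays. Detection of dim probes was therefore compared at unlike brightness between the genotypes in BAT. Skeletal muscle markers were all detected on BAT-KO-1 and BAT-KO-3 and not on the other BAT arrays, with summed signals of 140 and 29.5 times the 75th percentile there, 8.07 and 12.8 on the other KO arrays and 43.5 to 50.4 on the WT arrays.

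Of the 44 collagen genes, 22 were detected on all 4 arrays of every group. They comprised 7 fibrillar genes (Col1a1, Col1a2, Col2a1, Col3a1, Col5a1, Col5a2 and Col5a3), Col4a1, Col4a2 and Col4a5 of the basement membrane, the type VI genes Col6a1, Col6a2 and Col6a3, and Col7a1, Col8a1, Col12a1, Col14a1, Col15a1, Col16a1, Col18a1, Col20a1 and Col23a1. Another 12 were not detected on all 4 arrays of any group and were not tested. Among these were the cartilage collagens Col9a1, Col9a3, Col10a1 and Col11a1, the kidney and lung chain Col4a3, and Col24a1, Col25a1 and Col28a1. The remaining 10 were detected throughout 1 group but not all groups, among them Col4a6 and Col8a2 in gWAT but on no BAT array, Col6a5 in all groups but BAT-WT, and Col13a1 and Col27a1 on every BAT array but on 1 of 4 gWAT-WT arrays each.

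**Figure D1:**
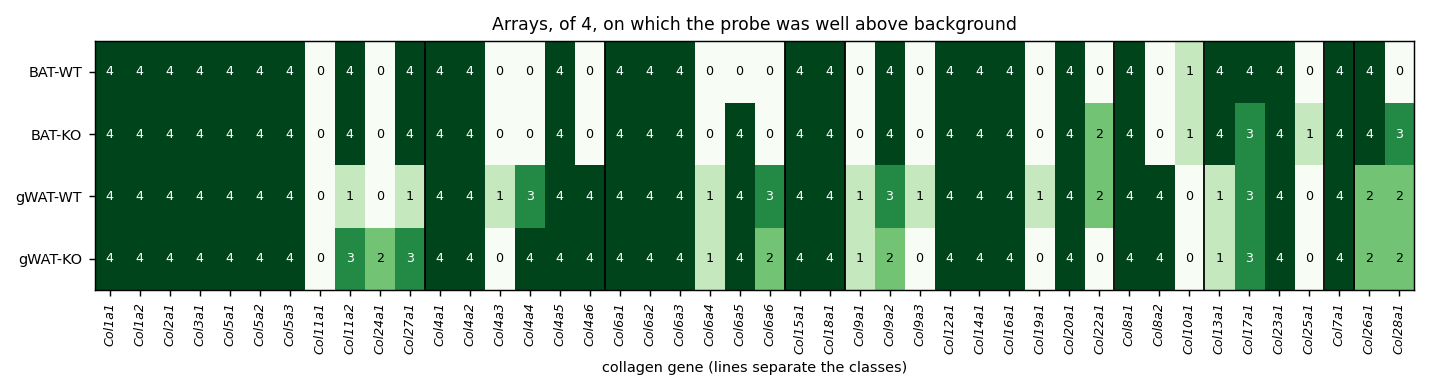
Number of arrays (of 4, rows are groups) on which the probe of each of the 44 collagen genes (columns, by class) was well above background. The columns of 22 genes are at 4 in every group, and Col4a6 and Col8a2 are at 0 in both BAT groups and at 4 in both gWAT groups.

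In BAT of Adipo-Pgam1 KO mice most detected collagen genes were higher than in WT. Of 29 tested, 17 rose (58.6%) and 3 fell (10.3%), against 27.5% and 34% of the 14280 genes tested in this tissue, or 69.0% against 61.5% in either direction. The median log2 change of the 29 was 1.15, beside -0.08 for all genes. The groups did not overlap, with KO above WT, for 15 of the 29, against 25.2% of all genes (57.1% in either direction). The 15 genes that were not tested in BAT passed on no complete group, so these shares hold for the detected collagens alone. Scaling moved this balance: the split was 20 higher and 0 lower with the spike-in probes as the reference, which shifts the median of all genes by 0.54, and 14 higher and 6 lower with Actb and Rplp0, which shifts it by -0.59. Such a rescaling moves all genes alike, so it leaves the distance of 1.24 between the members' median and that of all genes as it is. With the normexp background correction, which acts on each spot, the members' median was 0.50 and that distance 0.61.

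Fibrillar collagens gave the highest median of the 3 broad classes: 7 of 9 tested rose, none fell, and the median was 1.53. Type I collagen, the main fibre of skin, tendon and bone, is built from the Col1a1 and Col1a2 chains. In BAT, Col1a1 read 3.31, 3.07, 4.01 and 2.52 in WT and 4.56, 5.54, 5.10 and 5.23 in KO. The lowest KO array lay above the highest WT array, and the change was 1.88 ± 0.32 (3.68-fold, adjusted p = 0.00095). A second Col1a1 probe changed by 1.82. For Col1a2 the WT arrays read 5.71, 5.57, 6.24 and 4.94 and the KO arrays 6.13, 7.22, 6.91 and 6.90. Here BAT-KO-1 fell below BAT-WT-3, so the groups overlapped, and the rise was 1.17 ± 0.31 (2.25-fold, adjusted p = 0.0093), lost with Actb and Rplp0 as the reference.

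Col3a1, the chain of type III collagen in the fine reticular fibres that accompany type I, read 5.31, 5.22, 5.92 and 4.34 in BAT of WT and 6.35, 6.96, 6.70 and 6.90 in KO. The groups stood apart, and the change was 1.53 ± 0.30 (2.89-fold, adjusted p = 0.0023). Because Col1a2 and Col3a1 rose side by side, the 250 bases before each annotated start are shown for comparison, from RefSeq on GRCm38.p6 and written 5′ to 3′ along the gene. Col1a1 has no entry in that table. Capitals mark matches on either strand to the CCAAT box (CCAAT), to the TATA box (searched as TATAAA) and to the Sp1 box (searched as GGGCGG).
Col1a2 (chr6:4505368-4505617, plus strand): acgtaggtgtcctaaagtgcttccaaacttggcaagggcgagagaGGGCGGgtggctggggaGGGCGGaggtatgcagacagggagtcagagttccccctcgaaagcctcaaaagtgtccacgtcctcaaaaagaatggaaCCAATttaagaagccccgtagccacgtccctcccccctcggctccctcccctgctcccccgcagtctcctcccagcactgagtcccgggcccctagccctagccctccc
Col3a1 (chr1:45311288-45311537, plus strand): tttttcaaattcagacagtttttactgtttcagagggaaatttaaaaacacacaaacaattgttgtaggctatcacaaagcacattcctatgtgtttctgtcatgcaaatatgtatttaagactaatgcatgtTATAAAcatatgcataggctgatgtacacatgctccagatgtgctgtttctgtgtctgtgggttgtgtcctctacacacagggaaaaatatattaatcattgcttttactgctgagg

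The Col1a2 window held 2 GGGCGG matches, which begin 205 and 188 bases before the start, and 1 CCAAT at 109. The Col3a1 window held none of either and 1 TATAAA at 117. Both genes rose, yet their windows shared no match among these motifs. Among 32851 promoter windows of this length, CCAAT occurred in 33.8%, TATAAA in 12.4% and GGGCGG in 32.7%. Of the 38 windows of 35 collagen genes, 13 held CCAAT, 5 held TATAAA and 22 held GGGCGG. Of the 13 genes higher in BAT-KO that had a window, 6 held CCAAT, 1 held TATAAA and 8 held GGGCGG. A match is a run of letters and not a site of binding.

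Type V collagen is incorporated into type I fibrils and limits their diameter. Col5a1 read 2.39, 2.47, 3.04 and 1.27 in BAT of WT and 3.52, 4.18, 3.68 and 3.73 in KO, a rise of 1.48 ± 0.34 (adjusted p = 0.0049). Col5a2 moved from -2.64, -3.14, -2.24 and -3.05 to -1.18, -0.23, -0.59 and -0.44, a rise of 2.15 ± 0.26 (adjusted p = 0.00014). All 4 KO arrays lay above all 4 WT arrays for both chains. Col5a3, the chain of this type that is less widely expressed, went from 2.58, 2.54, 2.83 and 1.43 to 5.01, 4.82, 4.04 and 4.59. Its rise was the largest of the type V chains on the brightest probes, at 2.27 ± 0.32 (4.82-fold, adjusted p = 0.00037), and its second probe was detected on 4 KO arrays and on 1 WT array.

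On all arrays Col2a1, the collagen of cartilage, had the largest change of any tested collagen gene in BAT. Its probe read -3.19, -3.41, -2.35 and -1.49 in WT and 0.80, 1.42, 1.12 and 1.39 in KO, a rise of 3.79 ± 0.39 (13.9-fold, adjusted p = 7.0e-05). Of the WT arrays only BAT-WT-4, the highest at -1.49, shared the slide of the KO arrays. Within this slide, against that single array, the change was 2.67, below the 3.18 of Col5a3. In gWAT of WT, the arrays on the same slide read 0.11, -0.21 and 0.49, and gWAT-WT-4 on another slide read -2.89. Slide and genotype cannot be fully told apart here. Other cartilage chains did not accompany Col2a1 in BAT. Col9a1, Col9a3, Col10a1 and Col11a1 were detected on no or 1 array of either BAT group, and Col11a2 changed by 0.05 ± 0.28 (95% CI -0.59 to 0.68). A second Col11a2 probe, detected on 3 WT and 4 KO arrays of BAT, changed by -0.51. Col27a1, another cartilage fibrillar chain, was detected on every BAT array and changed by 0.02 ± 0.28 (95% CI -0.62 to 0.65).

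Basement membrane collagen showed a smaller change for its main chains than for the chain Col4a5. Type IV collagen of most basement membranes is built from Col4a1 and Col4a2. In BAT, Col4a1 read 4.11, 4.17, 4.02 and 3.61 in WT and 4.35, 4.44, 4.13 and 4.77 in KO. BAT-KO-3 lay below BAT-WT-2, and the rise of 0.44 ± 0.17 (1.36-fold) was near the threshold (adjusted p = 0.0496). Leaving out 1 array at a time ended this call for 6 of the 8 arrays (adjusted p from 0.0300 to 0.116), and with Actb and Rplp0 as the reference the change turned to -0.15. Col4a2 read 3.90, 3.91, 3.77 and 3.52 in WT and 4.04, 4.14, 3.87 and 4.25 in KO, a difference of 0.30 ± 0.13 that did not pass (adjusted p = 0.064). The pair is transcribed head to head: on chromosome 8 of GRCm38.p6 the annotated starts are at 11312826 (Col4a1, minus strand) and 11312805 (Col4a2, plus strand), so that their first 22 bases overlap.

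Col4a5, known from the glomerular basement membrane, read -2.41, -2.37, -2.31 and -3.35 in BAT of WT and -0.60, -0.50, -0.86 and -0.54 in KO. The groups were far apart, with a rise of 1.98 ± 0.23 (3.96-fold, adjusted p = 0.00012), and a second probe was detected on 4 KO arrays and on no WT array. Its neighbour Col4a6 starts 1342 bases away on the opposite strand of chromosome X, and the Col4a6 probe was detected on none of the 8 BAT arrays. In gWAT both genes were detected on all 8 arrays. The 250 bases before each start are shown because the 2 genes face away from one start region and yet differed in detection. Capitals again mark these 3 boxes on either strand, and both windows come from RefSeq on GRCm38.p6.
Col4a5 (chrX:141475169-141475418, plus strand): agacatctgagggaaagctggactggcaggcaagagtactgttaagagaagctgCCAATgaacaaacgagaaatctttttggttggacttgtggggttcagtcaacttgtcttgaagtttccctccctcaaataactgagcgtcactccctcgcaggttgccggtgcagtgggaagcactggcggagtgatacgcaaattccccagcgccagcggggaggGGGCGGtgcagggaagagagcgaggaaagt
Col4a6 (chrX:141474077-141474326, minus strand): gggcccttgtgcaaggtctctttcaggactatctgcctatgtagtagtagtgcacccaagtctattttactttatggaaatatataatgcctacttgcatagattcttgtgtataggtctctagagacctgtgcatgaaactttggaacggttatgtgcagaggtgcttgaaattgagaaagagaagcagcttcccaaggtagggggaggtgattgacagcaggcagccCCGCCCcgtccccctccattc

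Each window held 1 GGGCGG match, which begins 30 bases before the Col4a5 start and, on the other strand, 21 bases before that of Col4a6. CCAAT occurred once in the Col4a5 window and not in the other. Col4a3 and Col4a4, the remaining type IV chains, were detected on no BAT array.

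Type VI collagen, the beaded filament that links basement membranes to fibrils and is abundant around adipocytes, rose in the 3 chains detected in both BAT groups, while Col6a4 and Col6a6 were detected in neither. Col6a1 read 4.28, 4.12, 4.45 and 3.45 in BAT of WT and 4.92, 5.71, 5.23 and 5.05 in KO (1.15 ± 0.25, adjusted p = 0.0034). Col6a2 went from 1.68, 1.52, 1.96 and 0.91 to 2.60, 3.35, 2.87 and 2.82 (1.39 ± 0.24, adjusted p = 0.0011). For Col6a3, whose cleaved end is known as endotrophin, the WT arrays read 3.59, 3.44, 3.79 and 2.46 and the KO arrays 4.44, 5.34, 4.86 and 4.72 (1.52 ± 0.30, adjusted p = 0.0023). None of these 3 genes overlapped between the groups, and the second Col6a3 probe changed by 1.40. Col6a5, tested because it was detected in KO, was detected on no WT array, where the probe read -5.93, -5.77, -5.87 and -5.79, and on all KO arrays, at -4.46, -2.49, -3.10 and -2.08. It was at least 1.91-fold higher in KO, a bound against the lowest detected signal of each WT array. BAT-KO-1 lay below the mean of this bound (-3.96). The Col6a5 call among the 17 higher genes (limma adjusted p = 0.00064) rests on WT values below detection, and it was lost with normexp. The same WT values place Col6a5 among the 15 genes without overlap. The second Col6a5 probe was detected on no BAT array.

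The multiplexins Col15a1 and Col18a1 lie at the outer face of basement membranes, and the end of Col18a1 yields endostatin. Col15a1 read -2.93, -2.45, -2.78 and -3.86 in BAT of WT and -1.70, -0.47, -1.23 and -1.24 in KO, a rise of 1.84 ± 0.34 (3.59-fold, adjusted p = 0.0015). Col18a1 moved from 1.77, 1.51, 2.05 and 1.04 to 3.61, 3.94, 3.46 and 3.63, a rise of 2.07 ± 0.21 (4.19-fold, adjusted p = 6.55e-05). Neither overlapped between the groups, and the second Col15a1 probe was detected on 4 KO arrays and on no WT array of BAT.

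Among the fibril-associated collagens, which coat fibrils without forming them, 2 of 5 tested rose in BAT (40%) and 0 fell. Of all genes 27.5% were higher and 61.5% were called in either direction, so this class did not stand out. Col16a1 read 0.16, 0.07, 0.31 and -0.40 in WT and 0.77, 1.49, 1.22 and 1.36 in KO (1.18 ± 0.20, adjusted p = 0.00093). Col14a1 read -3.28, -3.23, -2.65 and -2.88 in WT and -2.55, -2.38, -2.23 and -2.06 in KO (0.71 ± 0.17, adjusted p = 0.0064). Both rises were without overlap. The Col14a1 call was lost with normexp, with Actb and Rplp0 as the reference and with slide as a fixed block. Col12a1 (0.19), Col9a2 (-0.08) and Col20a1 (-0.09) did not pass the test. Nor did Col8a1 of vessel walls and the eye (0.10) or Col7a1 of the anchoring fibrils of skin (-0.09). A second Col12a1 probe, detected on 4 WT and 3 KO arrays of BAT, had the opposite sign (-0.44).

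All 3 collagen genes that fell in BAT lie outside the fibre, sheet and filament classes. Col23a1, a transmembrane collagen, read -1.95, -1.95, -2.22 and -2.34 in WT and -2.33, -3.40, -3.19 and -2.92 in KO. BAT-KO-1 lay just above BAT-WT-4, so the groups overlapped, and the fall was -0.85 ± 0.22 (adjusted p = 0.010), with -1.06 for a second detected probe. Col17a1, the transmembrane collagen of hemidesmosomes, read -3.43, -2.82, -3.32 and -3.25 in WT and -3.67, -3.58, -3.79 and -4.03 in KO (-0.57 ± 0.16, adjusted p = 0.013). Col26a1 read -3.29, -3.21, -3.21 and -2.60 in WT and -3.79, -3.56, -3.86 and -3.50 in KO (-0.60 ± 0.17, adjusted p = 0.014). None of the 3 passed with the spike-in reference.

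**Figure D2:**
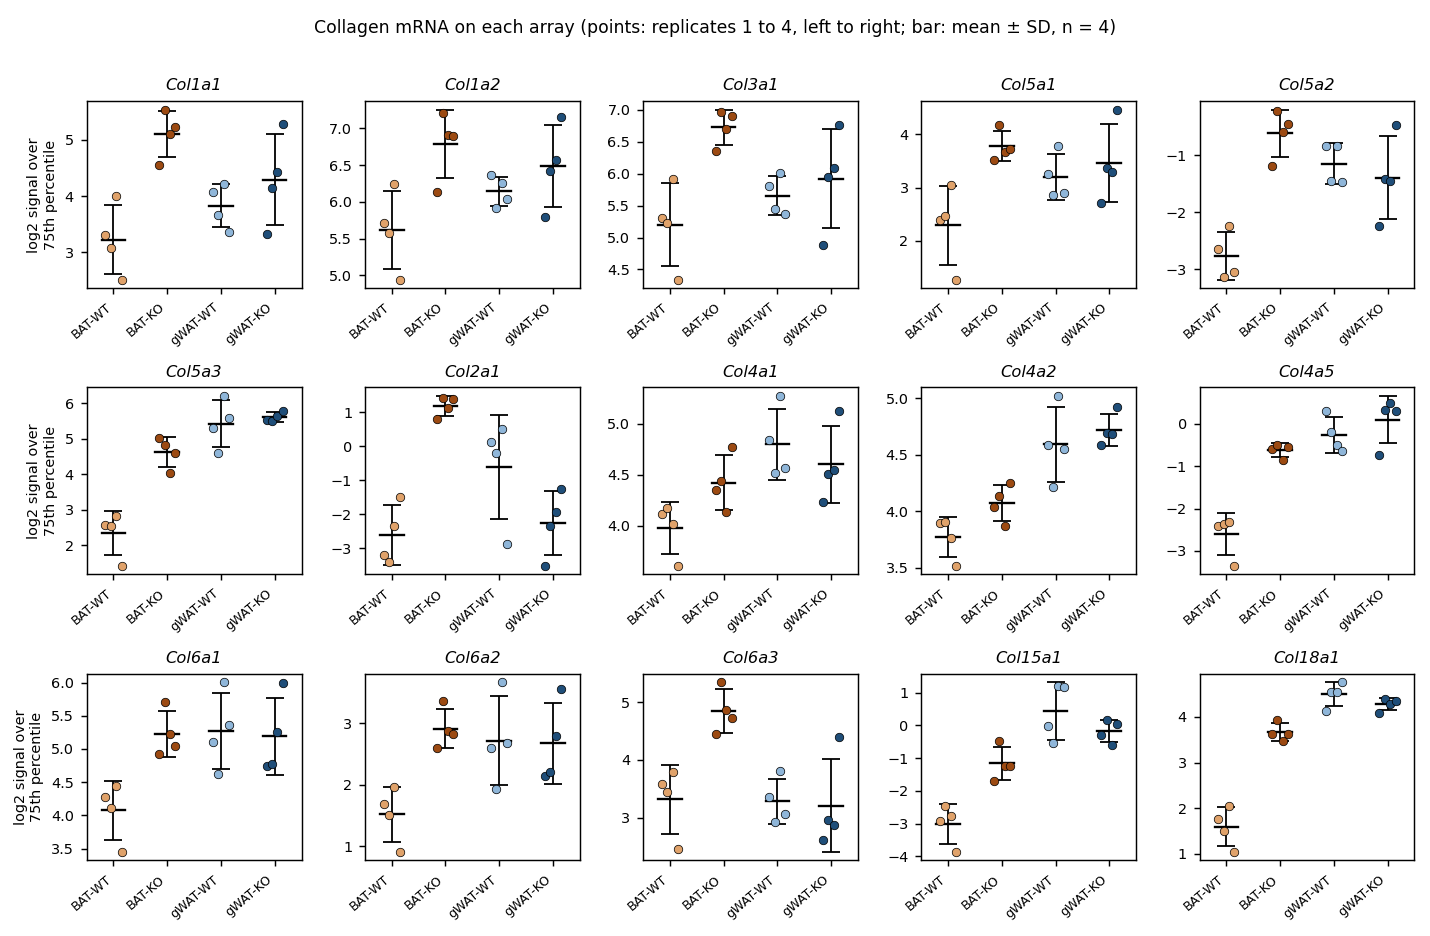
Level of 15 collagen genes on each array (y axis: log2 of the signal over the 75th percentile of the array, with its own range in each panel; x axis: group; bars: mean ± SD, n = 4). In the Col1a1 panel the BAT-KO arrays lie between 4.56 and 5.54, above the BAT-WT arrays, while gWAT-KO spreads from 3.33 to 5.28 around gWAT-WT.

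The collagens moved together from array to array. BAT-WT-4 was the lowest WT array for 21 of 27 members detected on every BAT array, and their median deviation from the WT mean was -0.54 on it. It was also the 1 WT array on the slide that held the KO arrays. The within-slide value therefore sets the 4 KO arrays against this single low array, which is assumed to vary like the others: the members' median was 1.61, with 17 higher and 1 lower, and slide cannot be told apart from this array. Without BAT-WT-4 the Col1a1 rise was 1.64, that of Col3a1 1.25 and that of Col5a1 1.14. Among the KO arrays BAT-KO-2 was highest for 18 of 27 members and BAT-KO-1 lowest for 12. With BAT-KO-1 and BAT-KO-3 left out for their muscle transcripts, 17 members rose and 2 fell, with a median of 1.31. The 2 that fell were Col23a1 (-1.05) and Col20a1 (-0.52, adjusted p = 0.018), while Col17a1 and Col26a1 no longer passed. With the 14-week arrays left out, 16 rose and 3 fell.

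**Figure D3:**
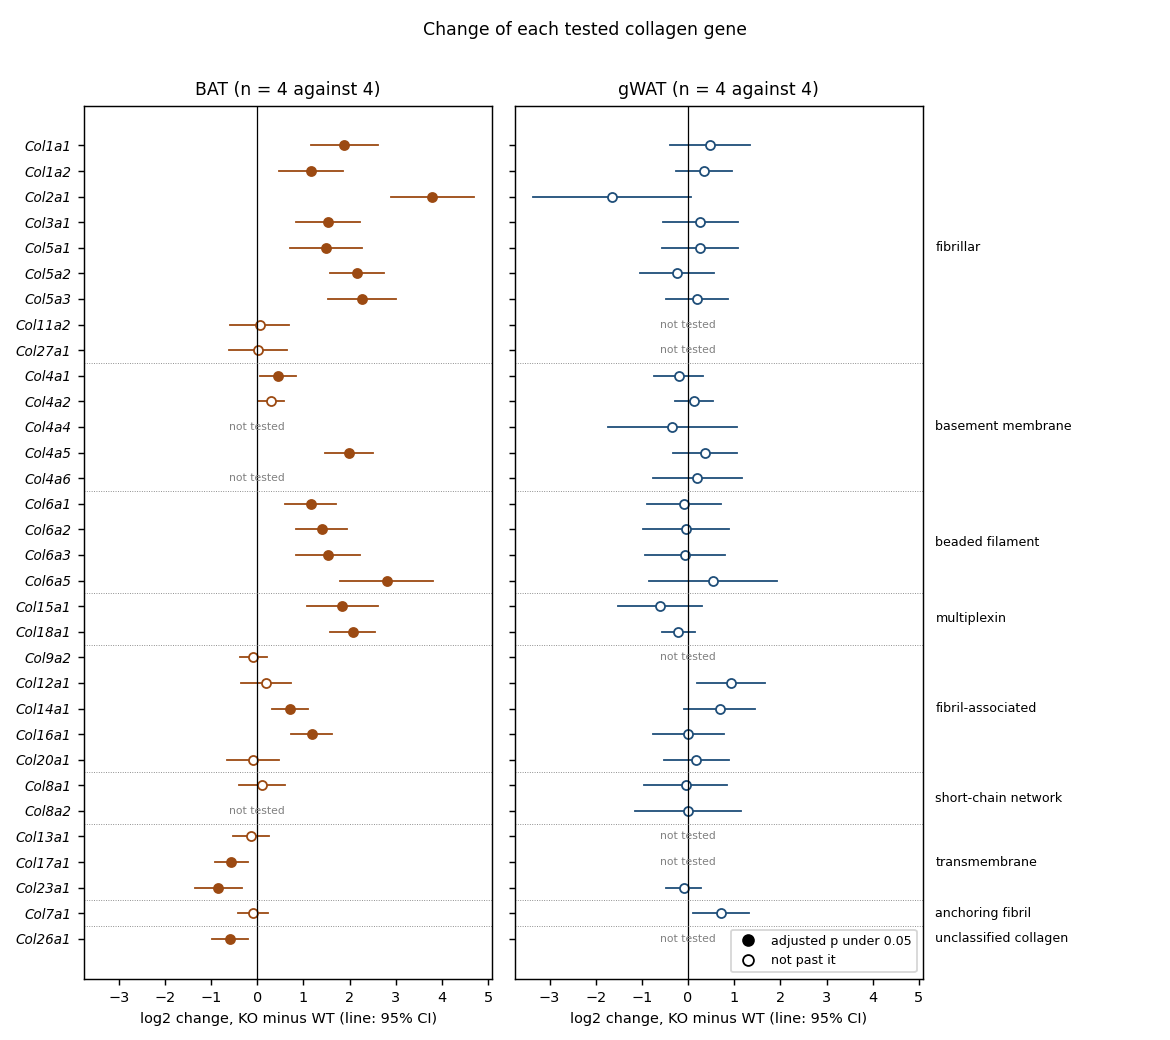
Log2 change (KO minus WT, x axis, points) with its 95% confidence interval (lines) for each collagen gene tested in either tissue, grouped by class, in BAT (left) and gWAT (right), n = 4 against 4. Filled points passed an adjusted p of 0.05: 17 to the right and 3 to the left of 0 in BAT, and 0 in gWAT. The Col6a5 point in BAT rests on WT arrays below detection and shows no size.

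In gWAT none of the 26 collagen genes tested passed, against 9.99% of 14149 genes that were higher and 7.85% that were lower on the arrays labelled KO (17.8% in either direction). The members' median was 0.07, beside 0.05 for all genes. At an unadjusted p under 0.05, 2 of the 26 were past the threshold, and the methods' t-test gave 1 unadjusted and 0 after Benjamini-Hochberg adjustment. This does not show that the levels were alike, since the intervals were wide. For Col1a1, WT read 4.07, 3.67, 4.21 and 3.37 and KO 3.33, 4.15, 4.43 and 5.28, a difference of 0.47 (95% CI -0.40 to 1.33). For Col3a1 the arrays read 5.81, 5.45, 6.02 and 5.36 in WT and 4.89, 5.95, 6.09 and 6.76 in KO (0.26, 95% CI -0.55 to 1.08). In both the gWAT-KO arrays held the lowest and the highest value.

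Other fibrillar chains gave the same picture in gWAT. Col1a2 read 6.36, 5.92, 6.26 and 6.05 in WT and 5.80, 6.42, 6.56 and 7.16 in KO (0.34, 95% CI -0.26 to 0.94). Col5a1 read 3.25, 2.86, 3.78 and 2.89 against 2.71, 3.36, 3.30 and 4.46 (0.26, 95% CI -0.56 to 1.09). The remaining type V chains differed by less: Col5a2 read -0.84, -1.45, -0.83 and -1.47 in WT and -2.24, -1.42, -1.44 and -0.46 in KO (-0.24, 95% CI -1.04 to 0.55). Col5a3 was among the steadiest on the KO arrays, at 5.31, 4.60, 6.20 and 5.59 in WT and 5.53, 5.49, 5.64 and 5.79 in KO (0.19, 95% CI -0.49 to 0.86).

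Col2a1 was lower on the arrays labelled KO, opposite to its sign in BAT, but the difference did not pass. Its arrays read 0.11, -0.21, 0.49 and -2.89 in WT and -3.52, -2.35, -1.94 and -1.27 in KO (-1.65, 95% CI -3.35 to 0.06, adjusted p = 0.16). The value of gWAT-WT-4 stood well below those of the other WT arrays. This was the only WT array on the slide of the KO arrays. Without it the difference was -2.40 and passed (adjusted p = 0.022). No slide then held both groups, so slide and label cannot be told apart in that value. Within the slide, against this single WT array, the difference was 0.62, of the opposite sign.

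For type IV collagen, Col4a1 read 4.84, 4.52, 5.27 and 4.56 in gWAT of WT and 4.23, 4.50, 4.54 and 5.13 in KO (-0.20, 95% CI -0.73 to 0.33). Col4a2 read 4.58, 4.21, 5.02 and 4.55 in WT and 4.58, 4.69, 4.68 and 4.92 in KO (0.13, 95% CI -0.28 to 0.53). Neither chain differed beyond the spread of the arrays. Col4a5 read 0.30, -0.20, -0.49 and -0.65 in WT and -0.73, 0.32, 0.50 and 0.30 in KO (0.36, 95% CI -0.34 to 1.05), and Col4a6 differed by 0.20 (95% CI -0.76 to 1.17).

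For type VI collagen, Col6a1 read 5.10, 4.63, 6.01 and 5.36 in gWAT of WT and 4.74, 4.77, 5.25 and 5.99 in KO (-0.09, 95% CI -0.89 to 0.71). Col6a2 read 2.60, 1.93, 3.67 and 2.67 in WT and 2.15, 2.20, 2.79 and 3.55 in KO (-0.05, 95% CI -0.99 to 0.89). Col6a3 read 3.36, 2.92, 3.80 and 3.06 in WT and 2.62, 2.95, 2.87 and 4.39 in KO (-0.08, 95% CI -0.94 to 0.79). In all 3, gWAT-WT-3 was the highest WT array and gWAT-KO-4, of a 14-week mouse, the highest KO array. Col6a5 was detected on every gWAT array, at 4.34, 2.66, 1.95 and 1.86 in WT and 1.90, 3.77, 3.55 and 3.74 in KO (0.54, 95% CI -0.85 to 1.93).

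Both multiplexins were lower on the arrays labelled KO without passing. Col15a1 read -0.03, -0.55, 1.20 and 1.16 in WT and -0.31, 0.17, -0.59 and 0.04 in KO (-0.61, 95% CI -1.53 to 0.30), and its second probe differed by 0.02. Col18a1 read 4.13, 4.54, 4.55 and 4.76 in WT and 4.09, 4.39, 4.28 and 4.35 in KO (-0.22, 95% CI -0.57 to 0.14). The nearest to a call were Col12a1 of tendon and dense connective tissue (0.94, 95% CI 0.20 to 1.68, adjusted p = 0.078) and Col7a1 (0.71, 95% CI 0.10 to 1.33, adjusted p = 0.098). Col12a1 was the 1 member of the 26 whose KO arrays all lay above the WT arrays, against 13.3% of all genes (24.2% in either direction). It passed with the spike-in reference (1.38, adjusted p = 0.028), which shifts all genes by 0.44.

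As in BAT, the gWAT arrays differed by level across many collagens at once. Of 25 members detected on every gWAT array, gWAT-KO-1 was the lowest KO array for 21 and gWAT-KO-4 the highest for 19, with median deviations from the KO mean of -0.52 and 0.65. Without the 14-week array 0 members passed and the median was -0.07. Within the slide that held the KO arrays gWAT-WT-4 was the only WT array, so its value (median 0.30, with 0 past the threshold) rests on 1 WT array.

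**Figure D4:**
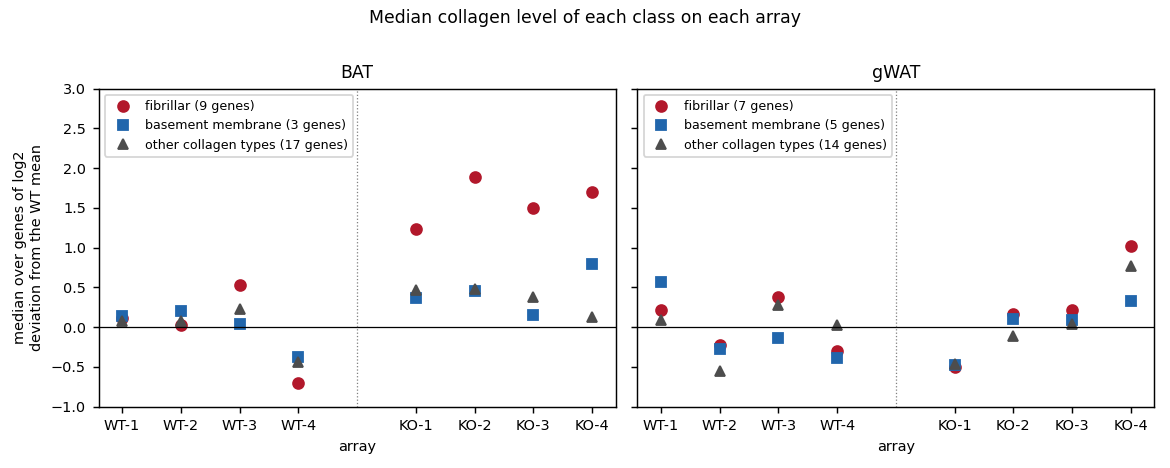
Median over genes of the deviation from the WT mean of the tissue (y axis, log2) on each array (x axis) for fibrillar (circles), basement membrane (squares) and other collagens (triangles) tested in BAT (left) and gWAT (right). The fibrillar median lies between 1.23 and 1.89 on the BAT-KO arrays and between -0.50 and 1.02 on the gWAT-KO arrays.

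The difference between the 2 responses was tested as the change in gWAT minus the change in BAT. Of 32 members, 12 had a lower change in gWAT than in BAT and 4 a higher one, against 21% and 27.4% of 14820 genes, or 48.3% in either direction. The 12 were Col1a1 (-1.41 ± 0.54, adjusted p = 0.041), Col2a1 (-5.44), Col5a2 (-2.40), Col5a3 (-2.08), Col4a5 (-1.63), Col6a1 (-1.24), Col6a2 (-1.44), Col6a3 (-1.60), Col6a5 (-2.27), Col15a1 (-2.46), Col16a1 (-1.17) and Col18a1 (-2.28 ± 0.27, adjusted p = 2.7e-05). The Col6a5 value rests on a BAT-WT level below detection and has no size. For Col1a2 (-0.83, adjusted p = 0.13), Col3a1 (-1.27, adjusted p = 0.051), Col5a1 (-1.22, adjusted p = 0.073), Col4a1 (-0.64, adjusted p = 0.094) and Col4a2 (-0.17, 95% CI -0.64 to 0.29) a difference between the tissues was not shown, although the first 3 rose in BAT and did not pass in gWAT. The 4 with the opposite sign were Col7a1 (0.80), Col23a1 (0.75), Col26a1 (0.96) and Col27a1 (1.74), of which the last 2 were detected on 2 or fewer arrays of gWAT-WT.

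How far these differences held varied by gene. Col2a1, Col4a5, Col5a2, Col5a3, Col6a3, Col15a1, Col18a1, Col26a1 and Col27a1 kept their call when any 1 array was left out. The other 7 lost it without at least 5 of the 16 arrays in turn, taken singly; for Col1a1 this was 11 of 16 (adjusted p from 0.0082 to 0.082). With Actb and Rplp0 as the reference, which moves this difference by 0.53 for all genes, 5 members were lower and 5 higher. With the spike-in reference 6 were lower and 1 higher. Of the genes that held with any 1 array left out, Col4a5 and Col6a3 lost their call with Actb and Rplp0. Col6a3 and Col27a1 lost it with the spike-in reference, and Col2a1, Col6a3 and Col27a1 with slide as a fixed block. Without the muscle arrays Col26a1 and Col27a1 lost it. Col27a1 also lost it with normexp, with slide as a random block and without the 14-week arrays. With slide as a fixed block 5 were lower and 1 higher.

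In WT mice the tissues differed in most collagens. Of 31 tested, 17 were higher in gWAT (54.8%) and 7 lower (22.6%), against 29.3% and 35.4% of 14304 genes, or 77.4% against 64.7% in either direction. The groups did not overlap for 14 members with gWAT above BAT, against 27.2% of all genes (60.8% in either direction). The median was 0.82, beside -0.10 for all genes. Tissue and slide were largely confounded here, since BAT-WT-4 was the only BAT-WT array on a slide that also held gWAT arrays. With slide as a fixed block Col8a1, Col12a1, Col14a1 and Col23a1 lost their call. The 3 type IV genes detected in both tissues were higher in gWAT, Col4a1 and Col4a2 by 0.82 each and Col4a5 by 2.35. Col4a6, tested because it was detected in gWAT, was at least 14.2-fold higher there, since no BAT array detected it. Both multiplexins were higher, Col15a1 by 3.45 ± 0.46 (10.9-fold) and Col18a1 by 2.90 ± 0.23 (7.47-fold). Col5a3 stood 3.08 ± 0.39 higher (8.46-fold), Col5a2 1.62 and Col2a1 1.99. The Col2a1 groups overlapped, and its call was lost without any of 6 arrays taken singly (adjusted p up to 0.11). Col1a1 (0.60, adjusted p = 0.12), Col1a2 (0.53, adjusted p = 0.098), Col3a1 (0.46, adjusted p = 0.22) and Col5a1 (0.90, adjusted p = 0.058) did not pass.

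Type VI chains did not follow each other between the tissues. Col6a1 and Col6a2 were each higher in gWAT by 1.20, whereas Col6a3 differed by -0.03 (95% CI -0.74 to 0.67), and its second probe by 0.17. Col6a5, of all collagens, gave the largest bound: it was at least 101-fold higher in gWAT (adjusted p = 2.7e-06). Col8a2 was at least 3.97-fold higher, Col8a1 was higher by 0.83, Col16a1 by 2.06 and Col14a1 by 1.60. The Col8a1 call was lost without any of 6 arrays taken singly (adjusted p up to 0.084).

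Collagens with a higher level in BAT of WT mice were of other types. Col27a1 read 0.84, 0.53, 0.06 and -0.50 in BAT and -4.47, -4.99, -6.33 and -5.55 in gWAT, where 1 array detected it, so that the fitted difference of -5.57 (adjusted p = 1.0e-05) rests mostly on levels below detection and its size is not settled. The transmembrane Col13a1, found at neuromuscular junctions, was likewise detected on all 4 BAT arrays and on 1 gWAT array, and its fitted difference of -2.94 has no settled size. Col7a1 (-2.28 ± 0.21), Col12a1 (-1.63 ± 0.31), Col20a1 (-1.34), Col11a2 (-1.56, detected on 1 gWAT array) and Col26a1 (-1.48, detected on 2) completed the 7. Col23a1 was higher in gWAT by 0.41 on its brightest probe and lower by 0.42 on a second detected probe, so its direction is not settled. BAT-WT is the control of both the genotype comparison and the tissue comparison, so a low value on a BAT-WT array, such as BAT-WT-4, raises both differences. Side by side, Col18a1 rose by 2.07 in BAT-KO and stood 2.90 higher in gWAT, Col5a3 by 2.27 and 3.08, Col15a1 by 1.84 and 3.45 and Col4a5 by 1.98 and 2.35, whereas Col1a1 rose by 1.88 and Col6a3 by 1.52 with tissue differences of 0.60 and -0.03. Col27a1, the member highest in BAT relative to gWAT, changed by 0.02 in BAT-KO.

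Proteins that fold, cut, cross-link and bind collagen were followed as lists. In the endoplasmic reticulum, hydroxylases and chaperones make and guard the helix. Of 17 tested in BAT 6 were higher (35.3%) and 2 lower (11.8%) in KO, beside 27.5% and 34% of all genes. The called share in either direction was 47.1%, below the 61.5% of all genes. The largest changes were Fkbp10, a collagen chaperone (1.36 ± 0.27, adjusted p = 0.0024), Hspa5, a general chaperone (1.16 ± 0.11, adjusted p = 5.6e-05), P4hb, a subunit of prolyl 4-hydroxylase (2.14-fold, adjusted p = 2.7e-05), and its catalytic partner P4ha1 (-0.75 ± 0.34, adjusted p = 0.083, not past the test). The median of this list was 0.29. In gWAT 0 of 18 passed, 4 of them at an unadjusted p under 0.05, with P3h2 the largest at -0.52 (adjusted p = 0.16).

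Outside the cell, proteinases trim the ends of procollagen and lysyl oxidases cross-link the fibrils. In BAT 6 of 12 tested were higher (50%) and 2 lower (16.7%), beside 27.5% and 34% of all genes, with a median of 1.04. The called share in either direction was 66.7% beside 61.5% of all genes. Adamts14 (2.70 ± 0.25, adjusted p = 4.5e-05) and Bmp1 (1.18 ± 0.18, adjusted p = 0.00060) are procollagen proteinases, and Loxl4 (1.55 ± 0.53, adjusted p = 0.032) and Loxl3 (1.36 ± 0.23, adjusted p = 0.00089) are lysyl oxidase-like enzymes. The Loxl4 call was lost without any of 7 arrays taken singly, and with normexp the Loxl4 change turned to -0.0601. In gWAT 0 of 11 passed, 1 at an unadjusted p under 0.05, and Lox gave the largest difference (-0.57, adjusted p = 0.082).

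Among collagen receptors 5 of 8 tested were higher (62.5%) and 1 lower (12.5%) in BAT-KO, beside 27.5% and 34% of all genes. Ddr2, a tyrosine kinase receptor for fibrillar collagens, rose by 2.39 ± 0.14 (adjusted p = 7.8e-06) and Lair1, an inhibitory receptor of leukocytes, by 2.71 ± 0.48 (adjusted p = 0.0012). Mrc2, which takes up collagen, rose by 0.73 (adjusted p = 0.0044), and the integrin chain Itga1 fell by 0.81 (adjusted p = 0.00097). In gWAT 0 of 8 passed, none at an unadjusted p under 0.05, and Lair1 differed by 0.73 (adjusted p = 0.15). Of the small proteoglycans that coat fibrils 4 of 8 were higher (50%) and 2 lower (25%) in BAT-KO, beside 27.5% and 34% of all genes. Lum rose by 2.02 ± 0.14 (adjusted p = 1.3e-05) and Aspn by 0.59 (adjusted p = 0.011), while Prelp changed by -2.85 ± 0.29 (adjusted p = 6.2e-05) and Podn by -0.82 (adjusted p = 0.019). Podn was the single gene of these 4 lists that passed in gWAT, at -1.60 ± 0.24 (adjusted p = 0.0057).

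Markers of the cells of adipose tissue moved as well, and fewer cells of a type cannot be told apart from less RNA per cell. The counts below stand beside 27.5% of all genes tested in BAT that were higher and 34% that were lower. All 8 fibroblast and progenitor markers had a positive change in BAT-KO and 6 passed, with a summed signal of 167 to 215 times the 75th percentile on the WT arrays and 214 to 273 on the KO arrays. Of 8 macrophage markers 7 rose, with sums of 27.8 to 39.3 in WT and 95.1 to 143 in KO. Of 6 adipocyte markers 5 fell, with sums of 2290 to 2519 in WT and 752 to 1037 in KO. Of 7 brown adipocyte markers 6 fell, with sums of 4282 to 4615 in WT and 1409 to 2326 in KO. Of 8 mural cell markers 0 rose and 3 fell (37.5%, near the share of all genes), with sums of 39.4 to 56.4 and 32.5 to 38.4. Of 8 endothelial markers 0 passed (38.7 to 49.6 and 27.6 to 53.0). All markers of these lists were detected on every BAT array except 1 fibroblast marker on BAT-WT-2. The part of these cells in the collagen changes was not tested.

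In gWAT the marker lists were read on the arrays labelled KO, where 9.99% of all genes tested were higher and 7.85% lower. Fibroblast and progenitor markers, of which 1 of 8 fell and 0 rose, summed to 549 to 779 in WT and 345 to 422 in KO. Their median change was -0.15, and the one that fell was Gsn (-0.92), while the other 7 lay between -0.21 and 0.29. Macrophage markers, of which 2 of 8 rose, summed to 67.3 to 91.6 in WT and 71.5 to 213 in KO. The KO array highest for most collagens, gWAT-KO-4, held the 213, the highest endothelial sum (55.4) and the lowest fibroblast sum of the KO arrays (345). The lowest for most collagens, gWAT-KO-1, held the 71.5 and a fibroblast sum of 383. Whether the collagens follow any of these lists from array to array was not tested. Brown adipocyte markers, of which 4 of 5 tested rose, summed to 26.5 to 62.1 and 127 to 329. Mural cell markers, of which 1 of 8 rose and 1 fell, summed to 37.9 to 52.9 and 63.7 to 95.6, although the median change was -0.05 and 5 of the 8 were negative. Acta2 rose (1.33) and Abcc9 fell (-0.93). Mesothelial markers, which line the visceral depot, were all 7 detected on every gWAT array and up to 3 on the BAT arrays, and summed to 10.5 to 32.4 in gWAT-WT and 14.2 to 31.4 in gWAT-KO. Markers of the epididymis, to which this depot is attached, were detected for 0 to 3 of 7 genes on the gWAT arrays, with sums of 0.0862 to 2.63 in WT and 0.362 to 2.34 in KO. Their part in the tissue difference was not tested.

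**Figure D5:**
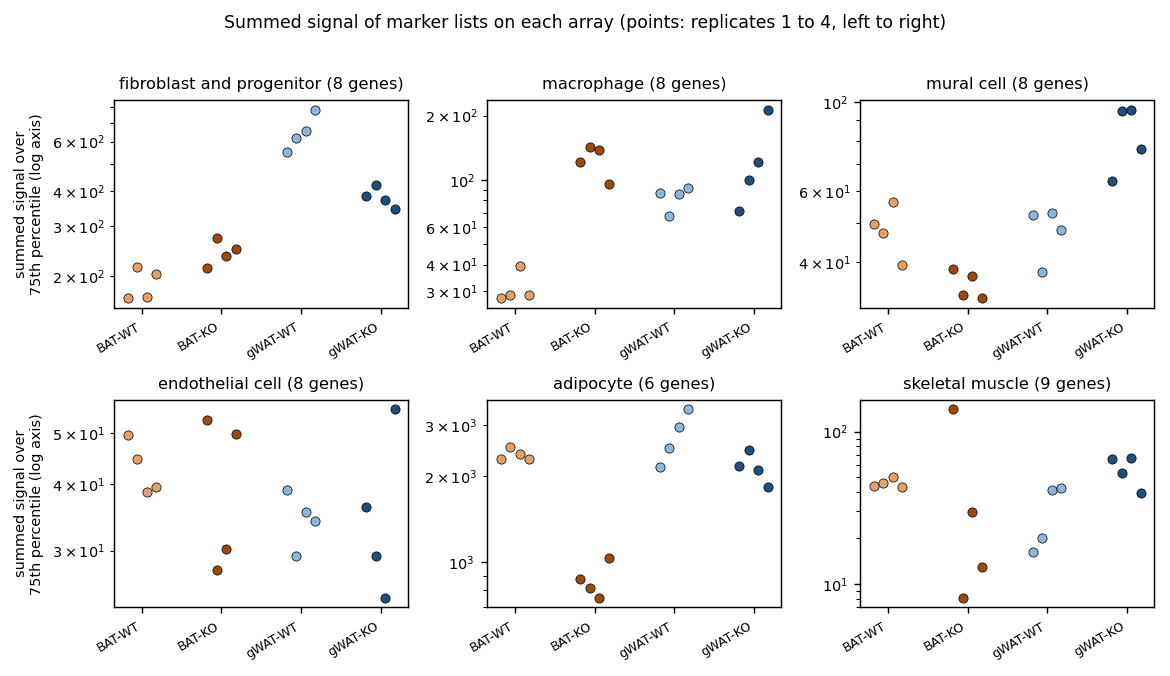
Summed signal of 6 marker lists on each array (y axis, logarithmic: sum over genes of the signal divided by the 75th percentile of the array; x axis: group). Macrophage sums are 27.8 to 39.3 in BAT-WT and 95.1 to 143 in BAT-KO, and fibroblast sums are higher in gWAT-WT than in every other group.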

How the data were processed

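RNA of 16 tissue samples was labelled with Cy3 and hybridized to Agilent 60K mouse arrays. The authors deposited the scanner output of each array, with a background-subtracted processed intensity per spot (Agilent Feature Extraction 10.7.1.1 per the labels), and a table of linear intensity divided by the 75th percentile of each array. Replicate spots were reduced to their mean here, and the log2 processed signal was set against that of the 75th percentile of its array. RefSeq accessions named 32994 of 56605 probes. The brightest probe stood for a gene. Genes entered a test if 1 of the groups compared had its 4 arrays all well above background. limma 3.58.1 (R 4.3.3) gave moderated tests, adjusted by Benjamini-Hochberg over all genes tested; ± is the SE, intervals are 95%, and the threshold was an adjusted p of 0.05. Fits used the arrays compared, and all 16 for the difference between tissues. 50.0% to 62.2% of probes were well above background per array, and 0 spots were saturated; the number of arrays limits the precision. Nothing says that replicates of a group were separate mice, so p-values measure the spread between these samples. The members and lists were chosen with earlier results of these data known. Array values are given for 13 collagens best known in fat and, beyond these, for up to 8 called ones of largest change in each tissue. All of the latter came from BAT, since 0 were called in gWAT. Of each other list the 4 largest changes are named. The normexp alternative used the median signal of each spot. limma was tested on simulated data. No probe or protein sequences were used here.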

Additional observations from a re-analysis of the deposited data

Results flagged for a closer look

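The change differed between the tissues (gWAT change minus BAT change, limma interaction term) for 14 of the 21 collagens described array by array. Of all genes tested 48.3% did so. The 14 were Col1a1 (-1.41), Col2a1 (-5.44), Col4a5 (-1.63), Col5a2 (-2.40), Col5a3 (-2.08), Col6a1 (-1.24), Col6a2 (-1.44), Col6a3 (-1.60), Col6a5 (-2.27), Col15a1 (-2.46), Col16a1 (-1.17), Col18a1 (-2.28), Col23a1 (0.75) and Col26a1 (0.96). The Col6a5 value rests on BAT-WT arrays below detection and has no size. Some of the 21 were chosen for a large called change in BAT. That change enters this term, so the share is no measure of the collagens at large.

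In 4 of 82 sets of 4 arrays 1 array stood far from the other 3, where chance gives about 1 in 20. BAT-WT-4 was low for Col4a5 (-3.35) and high for Col26a1 (-2.60), so it was not low for every collagen. gWAT-KO-1 was low for Col4a5 (-0.73) and for Col6a5 (1.90).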

How the results depend on the processing

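Over the 8 leave-one-out fits in BAT, 16 to 18 collagens were higher and 3 lower in KO (medians 0.95 to 1.27). In gWAT 0 to 2 were higher and 0 to 1 lower (medians -0.13 to 0.22): without gWAT-WT-1, Col7a1 (adjusted p = 0.049) and Col8a2 (adjusted p = 0.047) passed, and without gWAT-WT-4, Col2a1 did. Between the tissues of WT mice 14 to 18 were higher and 7 lower in gWAT, and the change in gWAT was higher than in BAT for 2 to 5 and lower for 7 to 16.

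With spike-in scaling 0 collagens were lower in BAT-KO (median 1.69), with Actb and Rplp0 6 (median 0.56), with no filter on dim probes 6 (median 0.10), and with slide as a fixed block 1 (median 1.61). Normexp gave a BAT median of 0.50. In gWAT 1 was higher when centred on array medians (Col7a1), with spike-in scaling (Col12a1, median of all members 0.51) and by the methods' t-test before adjustment (Col12a1). The difference between the tissues was higher for 2 members with normexp, with no filter and with probes well above background on all arrays, and for 1 with spike-in scaling, with slide as a fixed or random block and without the muscle or the 14-week arrays. It was lower for 6 with spike-in scaling and for 5 with Actb and Rplp0 or with slide as a fixed block. Requiring detection on all arrays left 3 members lower in gWAT than in BAT of WT mice. The cause was not tested, except that the filters change which genes enter.

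Among single genes the sign turned for Col4a1 in BAT (-0.15) and Aspn in BAT (-0.00363) with Actb and Rplp0, for Loxl4 in BAT (-0.0601) and Col6a5 between the tissues' changes (0.27) with normexp, and for Col23a1 between the tissues of WT mice (-0.00282) with the mean of the detected probes.

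The replicate numbers were not taken to pair the arrays, since not every pair was over 0.1: same-numbered arrays of WT and KO correlated in their deviations at 0.00035 to 0.22 in BAT and -0.14 to 0.43 in gWAT. Between the tissues the same numbers correlated at 0.22, 0.16, 0.18 and -0.07 in WT and at 0.11, 0.11, 0.29 and -0.19 in KO, so 3 of 4 were over 0.1 in each genotype and number 4 was below 0 in both. With the replicate block 16 collagens were higher and 3 lower in BAT, 17 were higher and 7 lower in gWAT than in BAT of WT mice, 1 was higher in gWAT (Col12a1, adjusted p = 0.049), and the difference between the tissues was higher for 3 and lower for 11.

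Leaving out the muscle or the 14-week arrays was chosen after seeing the data. Collagens near background, the 12 not tested among them, have levels that depend on the background correction.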
